A study of Triticum aestivum with 18 samples.

Results

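The embryo and the endosperm of germinating wheat seeds (Triticum aestivum) were compared after the seeds had imbibed in H2O2, on 3 arrays of H2O2_embryo and 3 arrays of H2O2_endosperm out of the 18 arrays of the series. These 6 arrays were chosen by their labels alone. The seeds were sterile, were treated with 100 μmol H2O2 (the labels give no volume), and had imbibed for 16 h, when the radicle had just emerged. Embryo and endosperm were then harvested separately and their total RNA was hybridised to the Affymetrix Wheat Genome Array, each in 3 experiments that the labels call independent. Sets of seeds in pure water (CK_embryo and CK_endosperm) and in ABA at 100 mg/L (ABA_embryo and ABA_endosperm), with 3 arrays per group and the same imbibition time, served to ask whether a tissue difference under H2O2 differed from that under the other conditions. All groups came from 1 wheat cultivar.

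The embryo holds the root and shoot axis and the scutellum, and resumes cell division, wall growth and lipid synthesis as it germinates. The cereal endosperm consists of dead, starch-filled cells surrounded by the living aleurone, which secretes hydrolases that break down starch, protein and cell walls for the seedling. H2O2 acts as a signal in imbibed seeds and speeds germination, whereas the hormone ABA delays it. The labels name the tissue only as endosperm and say nothing of aleurone or seed coat. In such bulk samples fewer cells of a type and less RNA per cell cannot be told apart.

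A probe set is a group of short probes for 1 transcript sequence, and its deposited signal is a linear intensity that the authors made with MAS5, software that scales every array to a common trimmed mean. Differences are given as log2 of the embryo signal minus log2 of the endosperm signal, with signals under 10 raised to 10, so a positive value is higher in embryo and the size of a difference is understated where a tissue lies near that floor. A probe set was called where its adjusted p in limma, over 57992 probe sets, lay under 0.05. The spread came from all 18 arrays, so the contrast under H2O2 shares no array with those in water and ABA but shares this estimate with them.

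H2O2_embryo replicate 1 stood apart from every other array. Its median signal was 138, against 59 to 81 on the other 17 arrays, and 6.79% of its probe sets lay below 10, against 17.5% to 20.8%. It correlated with the other H2O2_embryo arrays at r of 0.854 and 0.856 over probe sets, while those correlated with each other at 0.955 and the H2O2_endosperm arrays at 0.915 to 0.925. Its ubiquitin control signal was 95551 for the 5′ probe set, against 30406 and 29748 on replicates 2 and 3, and 6795 for the 3′ probe set, against 16337 and 16868. Tissue differences are therefore given with and without this array.

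Control RNAs also differed between the tissues. The hybridization controls, which are added after labelling, had geometric means of 1329 to 1631 on the H2O2_embryo arrays and 3301 to 4662 on the H2O2_endosperm arrays, 2.72-fold higher in endosperm, against 3.39-fold in water and a ratio of 0.932 under ABA. The poly-A controls, added to the RNA before labelling, lay at 116 to 125 in H2O2_embryo and at 3766 to 3892 in H2O2_endosperm, a 32.2-fold difference, against 9.02-fold in water and 3.18-fold under ABA. Within every group they varied less than the hybridization controls, for example 291 to 292 against 1478 to 1943 in ABA_embryo. What this means for the independence of the replicates was not tested. The 18S rRNA control, which reads the tissue's own RNA, was 3.1-fold higher in H2O2_endosperm, against 2.18-fold in water and 1.3-fold under ABA. The groups overlapped in none of these under H2O2. The part of these gaps in the results was not tested, beyond a rescaling of every array to its hybridization controls. That rescaling raised the median difference of all probe sets from 0.18 to 1.41, so differences below are to be read relative to the median of all transcripts. Small endosperm-high differences turn direction under it, and the turns of list medians and of transcripts named in the text are given.

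**Figure D1:**
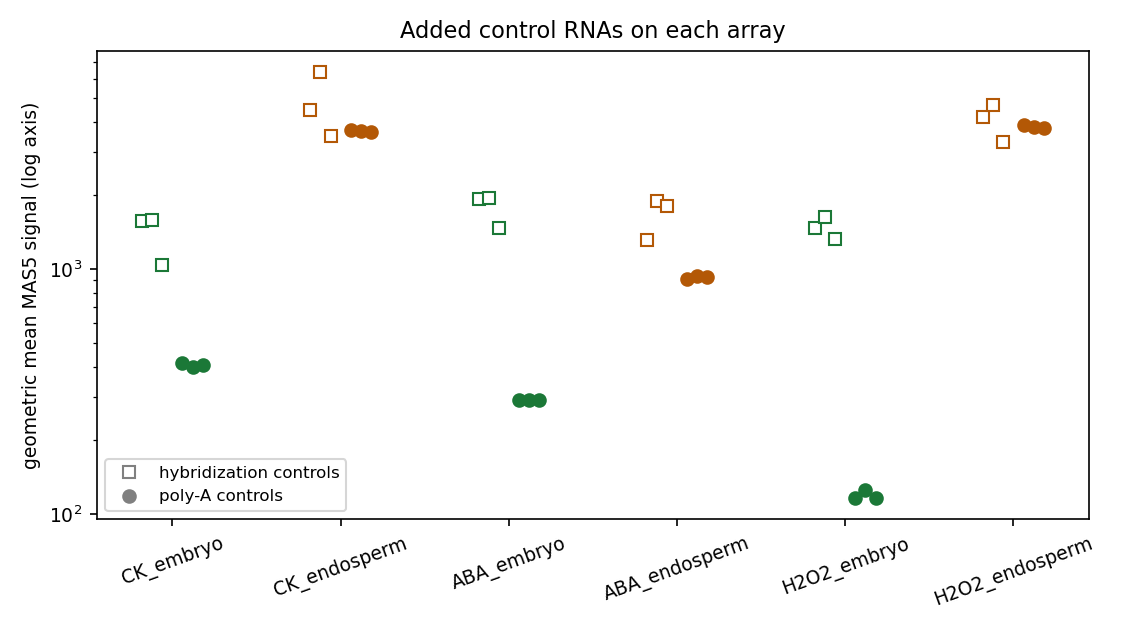
Geometric mean MAS5 signal (log axis) of the hybridization controls (open squares) and poly-A controls (filled circles) on each of the 18 arrays, by group, with embryo in green and endosperm in brown. Under H2O2 the poly-A controls lay at 116 to 125 in embryo and at 3766 to 3892 in endosperm, the widest gap among the 3 conditions.

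The labelled tissues were checked against their markers. Wheat germ agglutinin (M25537), a chitin-binding lectin of the embryo, had signals of 2256, 2126 and 2094 on the H2O2_embryo arrays and 269, 208 and 186 on the H2O2_endosperm arrays. Its embryo signals lay far above all endosperm signals, with a log2 difference of 3.31 (SE 0.15, adjusted p = 1.1e-12) and 3.27 without replicate 1. Over all 7 embryo marker probe sets, 6 of them for the Em protein, 3 were called higher in embryo (5 without replicate 1, and 1 under scaling to the 75th percentile) and the summed signal ran from 25143 to 36133 in embryo and from 23632 to 24994 in endosperm. Of 20 probe sets for gliadins, glutenins, avenin-like proteins and waxy starch synthase, which mark starchy endosperm, 19 were tested, 5 were called higher in endosperm and none higher in embryo (6 and none without replicate 1, and 4 and 5 with arrays scaled to the hybridization controls). These markers were dim in both tissues: 8, 9 and 12 of the 20 lay below 20 on the H2O2_embryo arrays and 4, 5 and 5 on the H2O2_endosperm arrays. The summed marker signal ran from 4809 to 9564 in embryo and from 6786 to 7636 in endosperm, so the groups overlapped, and most of it came from 1 avenin-like probe set (BJ321823) at 4363 to 6955 and 4966 to 5150.4. Over all probe sets 13.1% were called higher in embryo and 9.62% higher in endosperm. The part of starchy endosperm RNA in the results was not tested.

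Under H2O2, 7590 probe sets (13.1% of those tested) were higher in embryo and 5579 (9.62%) higher in endosperm. Without replicate 1 the counts were 8231 (14.2%) and 6406 (11%), and the median difference of all probe sets moved from 0.18 to 0.00. Of the probe sets called with all arrays, 6316 of the embryo-high and 5027 of the endosperm-high ones were called in the same direction without that array, and none in the opposite direction. All 3 embryo signals lay above all 3 endosperm signals for 10557 probe sets (18.2%), and the reverse held for 7641 (13.2%). The balance of directions depended on the scaling: it was 5657 against 6809 with arrays scaled to the 75th percentile, 6550 against 6218 after quantile normalization and 29891 against 931 with arrays scaled to the hybridization controls.

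With the deposited scaling, the largest differences lay on the endosperm side. At 2-fold or more the counts were 4836 for embryo and 3635 for endosperm, at 4-fold or more 1742 and 1548, and at 8-fold or more 355 and 583. At 32-fold or more 11 probe sets were higher in embryo and 129 in endosperm, and at 64-fold or more 0 and 58. Without replicate 1 the last counts were 10 and 137, and 0 and 58, so the excess at the upper end did not rest on that array. Whether it holds with arrays scaled to the hybridization controls was not tested. That scaling moved the median difference of all probe sets towards embryo, from 0.18 to 1.41.

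**Figure D2:**
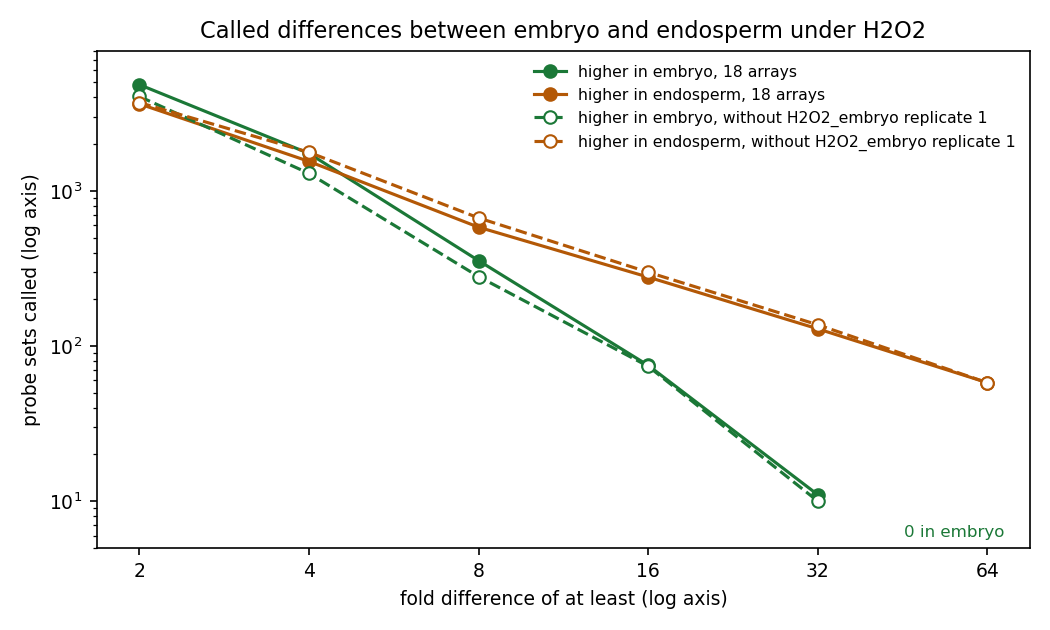
Number of called probe sets (log axis) that differed between the tissues under H2O2 by at least the fold on the log x axis, for all 18 arrays (filled, solid lines) and without H2O2_embryo replicate 1 (open, dashed lines). The endosperm curve lies above the embryo curve from 8-fold on, and at 64-fold it holds 58 probe sets against 0.

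Histone transcripts were mostly embryo-high. Histones package DNA, and most of their messages accumulate while a cell copies its genome. Of 47 histone probe sets tested, 41 were higher in embryo and 1 in endosperm under H2O2, with a median difference of 2.49 against 0.18 over all probe sets (44 and 1, and 2.94 against 0.00, without replicate 1, and 46 and 0 with arrays scaled to the hybridization controls). Over all probe sets 13.1% were higher in embryo and 9.62% in endosperm (14.2% and 11% without replicate 1). Names for 25 of the 47 came only from the study's own table, which lists transcripts chosen on these samples as changed by ABA or H2O2 against water, so neither their direction nor their shifts against water and ABA are independent evidence. Of the 22 named by the platform annotation, 16 were higher in embryo and 1 in endosperm, with a median of 1.89. The 47 probe sets belong to 35 accessions, and 24 have IDs that mark probes shared with related sequences, so single family members cannot be separated with certainty. The endosperm-high member was a probe set for the H2A of D38088 (-0.71, adjusted p = 0.00475), and the other probe set of that accession was not called (0.43, adjusted p = 0.333). With arrays scaled to the hybridization controls the lowest value of the list was 0.74, so the endosperm-high member turned positive there.

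The histone probe set for BJ217006 showed the pattern with little spread. Its signals were 7563, 8707 and 9019 in H2O2_embryo and 217, 229 and 279 in H2O2_endosperm, a 35.0-fold difference (log2 5.13, SE 0.12, adjusted p = 5.9e-17, or 5.21 without replicate 1). In water the same probe set read 4691, 4949 and 5418 in embryo and 1709, 1594 and 1629 in endosperm, and under ABA 636, 692 and 692 against 1942, 2409 and 2102. The order of the tissues was thus the same in water as under H2O2 and the opposite under ABA, with no overlap in any condition.

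Probe sets for core histones H2A and H2B ran the same way. The H2A gene wcH2A-9 (BJ306445) read 3548, 9548 and 10022 in embryo and 385, 387 and 377 in endosperm (log2 4.19, SE 0.25, adjusted p = 9e-11, or 4.68 without replicate 1). The H2B gene wcH2B-8 (BJ221397) read 1235, 1857 and 1917 against 80.9, 24.6 and 65.3 (log2 5.02, SE 0.34, adjusted p = 6.2e-10, or 5.22 without replicate 1). In both, the outlying array was the lowest of the embryo arrays. For BJ308545 it was the highest, at 2656 against 928 and 931, with endosperm at 26.7, 50.6 and 18.6 (log2 5.49, SE 0.41, or 4.99 without replicate 1). Embryo and endosperm signals did not overlap in any of these probe sets.

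Over the list, the geometric mean of the 47 signals was 1630.3, 2978 and 2926 on the H2O2_embryo arrays and 354, 340.0 and 378 on the H2O2_endosperm arrays. It was 2025, 2106 and 2101 in CK_embryo, 1063, 1019 and 1013 in CK_endosperm, 498, 475 and 528 in ABA_embryo, and 1000.3, 1013 and 1023 in ABA_endosperm. The H2O2_endosperm arrays were the lowest of all groups, and without the outlying array the H2O2_embryo arrays were the highest. In water 23 of the 47 were higher in embryo and 0 in endosperm (median 0.90, where 18.2% of all probe sets were called, 6.96% higher in endosperm), and under ABA 3 and 30 (median -1.21, background 9.70% and 6.39%). Without replicate 1, which enters these 2 contrasts only through the estimate of the spread, the counts were 38 and 0 (background 26.3% in all) and 4 and 37 (background 13.9% and 9.82%). Tested directly, the tissue difference was shifted towards embryo under H2O2 relative to water in 31 probe sets and towards endosperm in 0 (42 and 1 without replicate 1, background 1.51% and 2.12%, or 3.97% and 4.57%). Relative to ABA it was shifted towards embryo in 38 and towards endosperm in 1 (46 and 1 without replicate 1, background 2.02% and 2.28%, or 4.61% and 4.63%). After scaling to the hybridization controls these shifts towards embryo were called in 11 probe sets relative to water and 46 relative to ABA, and none towards endosperm. Among the 22 named by the platform annotation the shift was towards embryo in 12 and towards endosperm in 0 relative to water (18 and 1 without replicate 1), and in 14 and 1 relative to ABA (21 and 1).

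**Figure D3:**
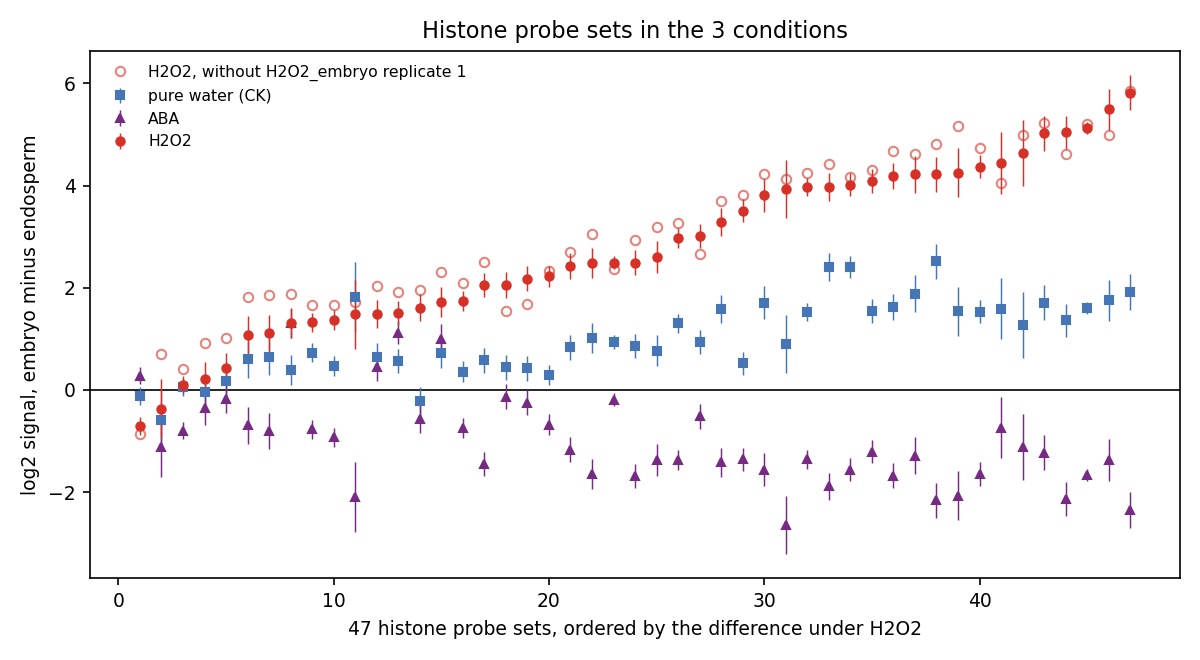
Embryo minus endosperm difference (log2 signal, y axis; bars are standard errors) of 47 histone probe sets, ordered along the x axis by their difference under H2O2, under H2O2 (red), without H2O2_embryo replicate 1 (open red), in water (blue) and under ABA (purple). Of the 47, 45 lie above 0 under H2O2, 43 in water and 5 under ABA.

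The glutathione S-transferase Cla47 (AY064480), which conjugates toxic compounds to glutathione, read 5095, 4619 and 4582 in embryo and 303, 243 and 329 in endosperm (log2 4.04, SE 0.17, adjusted p = 4.4e-13, or 3.99 without replicate 1). Germin (M21962), an oxalate oxidase of germinating cereal embryos that itself forms H2O2, read 8747, 6166 and 6058 against 437, 582 and 515 (log2 3.76, SE 0.15, adjusted p = 1.9e-13, or 3.59 without replicate 1). A probe set placed with the alcohol dehydrogenases of fermentation (CA605311) read 4339, 2527 and 2478 against 147, 218 and 173 (log2 4.09, or 3.82 without replicate 1). Each of these had embryo signals at least several times every endosperm signal. For Cla47 and germin the tissue difference was larger than in water, by 1.5 (adjusted p = 0.0011, or 1.45 without replicate 1) and 1.35 (adjusted p = 0.000917, or 1.18), and larger than under ABA, by 0.93 (adjusted p = 0.0336, or 0.88) and 0.86 (adjusted p = 0.0241, or 0.69). Scaled to the hybridization controls, the differences against water were 1.18 and 1.03 and no longer called (adjusted p = 0.254 and 0.292). Cla47 and CA605311 stand in the study's table of transcripts changed by treatment in the endosperm. Their direction and the shifts of Cla47 against water and ABA are therefore not independent evidence.

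Antioxidant and redox enzymes as a list did not share 1 direction. Of 41 tested, 10 were higher in embryo and 13 in endosperm, with a median of -0.06 that turned to 1.33 with arrays scaled to the hybridization controls (7 and 14 without replicate 1). The shares over all probe sets were 13.1% and 9.62% (14.2% and 11% without replicate 1). Names for 26 of the 41 came only from the study's table, so their direction is not independent evidence. A second glutathione S-transferase (AF479764) was on the embryo side at 850.3, 711 and 930.3 against 90.3, 87.8 and 51.4 (log2 3.48, or 3.46 without replicate 1). Alternative oxidase (AB078883), which lets mitochondrial electrons bypass part of the respiratory chain, was on the endosperm side at 185, 313 and 337 against 34, 6.73 and 69 in embryo (log2 -3.23, adjusted p = 6.9e-05, or -3.36 without replicate 1). Its tissue difference under H2O2 did not pass the test against that in water (0.56, adjusted p = 0.765) and passed it against that under ABA (-3.01, adjusted p = 0.0185, or -3.13 without replicate 1, but adjusted p = 0.125 with arrays scaled to the hybridization controls), where the signals were 575, 547 and 451 in embryo and 669.5, 548 and 616 in endosperm.

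Wall-building genes were called more often in embryo than in endosperm. Of 77 probe sets for wall precursor synthesis, 27 were higher in embryo and 8 in endosperm (35 and 8 without replicate 1), with a median of 0.47 (0.44). The counts were 16 and 2 of 65 for cellulose and hemicellulose synthesis (14 and 4), 10 and 3 of 37 for wall proteins (9 and 6), and 19 and 5 of 61 for expansins (18 and 6), non-enzymatic proteins that loosen walls during growth. The medians of these 3 lists were 0.53, 0.50 and 0.47 and fell to 0.16, 0.10 and 0.28 without replicate 1, against medians of all probe sets of 0.18 and 0.00. Under scaling to the 75th percentile the counts for wall proteins were 5 and 4. For wall degradation the counts were close to even, 15 and 11 of 113 (17 and 13), near the background of 13.1% and 9.62%.

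Among the wall genes, phosphomannomutase, which supplies mannose phosphate on the way to GDP-mannose, read 5946, 3607 and 3770.1 in embryo and 658, 504 and 596 in endosperm (BF200485, log2 2.89, SE 0.16, adjusted p = 2.4e-11, or 2.66 without replicate 1). Expansin EXPA5 (AY543531) read 1188, 509 and 524 against 73.9, 88.5 and 78.3 (log2 3.09, SE 0.33, adjusted p = 5.4e-07, or 2.69 without replicate 1). EXPA8 (AY543534) and EXPA3 (AY543529) differed by 2.73 and 2.64, or 2.56 and 2.45 without replicate 1. In these 4 transcripts the outlying array was the highest of the 3, and the other embryo arrays still lay above all endosperm arrays. A beta-expansin probe set (CD897610) ran the other way, at 149, 83.6 and 68.1 against 1152, 1016 and 1033 (log2 -3.49, SE 0.27, adjusted p = 3.6e-09, or -3.82 without replicate 1). A reversibly glycosylated polypeptide (BJ283983), an enzyme family that forms the arabinose precursor of wall polymers, was abundant in both tissues, at 26866, 22896 and 22180.1 against 7239, 7646 and 7869.8 (log2 1.66, or 1.57 without replicate 1).

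The study ran quantitative PCR assays for 9 genes, and 3 of these, all wall genes, could be matched to the array by accession. Their primers are shown because they define which transcripts those assays read, each 5′ to 3′ in lower case as the study's supplementary list gives it. Their position in the genome was not analysed here.
Expansin A1 (AY485121) forward: catcaacggccactcctact
Expansin A1 (AY485121) reverse: aaggtgttgctctgccagtt
Expansin B2 (AY543540) forward: tgcggttcatgctacaagat
Expansin B2 (AY543540) reverse: gaactcgatgtcgatgatgc
Phosphomannomutase (CK198230) forward: ggtgtcagtgcttcgtgaaa
Phosphomannomutase (CK198230) reverse: tgatcattgccacccttgta
On the array, Expansin A1 read 6495, 2401 and 2384 in embryo and 1226, 1325 and 1114 in endosperm (log2 1.45, SE 0.25, adjusted p = 0.000168), and the difference fell to 0.97 without replicate 1 and was still called. The phosphomannomutase of CK198230 read 443, 1398 and 1492 against 171, 138 and 207 (log2 2.52, SE 0.34, adjusted p = 1.1e-05, or 3.09 without replicate 1), and its other probe set read 2797, 3869.7 and 4048 against 768, 767 and 958 (log2 2.09, or 2.26 without replicate 1). Here the outlying array was the lowest of the embryo arrays. Expansin B2 was dim and its groups overlapped, at 202, 26.2 and 40.1 against 54.5, 8.63 and 91.4 (adjusted p = 0.647), and 87.7, 6.85 and 28.9 against 6.27, 3.56 and 44.9 on its other probe set (adjusted p = 0.536). The study reported that its PCR patterns matched its array patterns for Expansin B2 and phosphomannomutase. For Expansin A1 it reported that they generally followed them.

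Genes of fatty acid synthesis were called more often in embryo than in endosperm, and those of lipid breakdown about equally often. Over all probe sets, 13.1% were higher in embryo and 9.62% in endosperm. Of 163 probe sets for fatty acid synthesis and elongation, 31 were higher in embryo and 10 in endosperm (46 and 14 without replicate 1), with a median of 0.24 against 0.18 over all probe sets. Under 75th percentile scaling the counts were 27 and 17 and the median 0.08, against 0.02 over all probe sets. Acetyl-CoA carboxylase (AF029895), the committed step of the pathway, read 6715, 3438 and 3278 in embryo and 1128, 1261 and 1208 in endosperm (log2 1.82, SE 0.20, adjusted p = 6e-07, or 1.49 without replicate 1). An enoyl-ACP reductase match (CK194340), which completes each elongation cycle, read 2782, 3373 and 3329 against 626, 593 and 678 (log2 2.32, SE 0.13, adjusted p = 3.5e-11, or 2.41 without replicate 1). Both enzymes thus separated the tissues on every array. For lipid degradation the counts were 19 and 20 of 137 (23 and 20 without replicate 1), with a median of 0.14 that turned to -0.02 under 75th percentile scaling and -0.07 after quantile normalization.

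A probe set matched to an acyl-CoA reductase (BJ242205), an enzyme that turns fatty acids into alcohols, separated the tissues under H2O2. It read 1063, 478 and 472 in embryo and 46.7, 13.2 and 63 in endosperm (log2 4.2, SE 0.46, adjusted p = 6.4e-07, or 3.81 without replicate 1). In water the signals were 237, 261 and 371 against 196, 311 and 323, with overlap, and under ABA 187, 189.8 and 249 against 145, 116 and 225. The tissue difference was larger under H2O2 than in water by 4.13 (adjusted p = 0.000763, or 3.74 without replicate 1) and than under ABA by 3.79 (adjusted p = 0.00102, or 3.40).

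Lipid transfer proteins, small secreted proteins that bind lipids, split between the tissues. Of 32 probe sets, 19 were higher in embryo and 3 in endosperm, with a median of 1.23 (18 and 4, and 1.18, without replicate 1), against 13 and 3 in water and 12 and 3 under ABA. The tissue difference was shifted towards embryo relative to water in 8 of them and towards endosperm in 0, on a background of 1.51% and 2.12%. The counts were 16 and 0 without replicate 1 (background 3.97% and 4.57%), and 0 and 0 with arrays scaled to the hybridization controls. Of the 32, 5 were classed by the study's own table of transcripts changed by treatment, so neither their direction nor their shift against water is independent evidence. On the embryo side BQ162656 read 8715, 16119.6 and 16576 against 1104, 1217 and 1053 (log2 3.56, SE 0.17, adjusted p = 2.6e-12, or 3.86 without replicate 1), and BQ838076 read 2385, 7916 and 8421 against 468, 429.8 and 318 (log2 3.76, or 4.35 without replicate 1). Both stand in the study's table, in a class that joins lipid transfer proteins with protease inhibitors and storage proteins, and both read lower on the outlying array.

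The largest tissue difference among all named transcripts belonged to a lipid transfer protein on the endosperm side. The gene ltp9.1b (BJ296643) read 42.5, 104 and 31.7 on the H2O2_embryo arrays and 69091, 81807 and 81524 on the H2O2_endosperm arrays, 1488-fold higher in endosperm (log2 -10.54, SE 0.27, adjusted p = 1e-16, or -10.40 without replicate 1). Its other probe set read 19, 15.9 and 21 against 71379, 82267 and 77307 (log2 -12.02, or -12.04 without replicate 1). The endosperm signals were close to those of the other conditions, 74906 to 84866 in CK_endosperm and 58043 to 85794 in ABA_endosperm for the first probe set. The embryo signals were 96 to 105 in water and 553 to 588 under ABA, so the tissue difference under H2O2 did not pass the test against that in water (-0.90, adjusted p = 0.224) and was larger than that under ABA by -3.60 (adjusted p = 2.4e-06, or -3.46 without replicate 1). The study's table of transcripts changed by treatment in the embryo lists BJ296643 under protein degradation by ubiquitin. These classes were not reconciled here, and the shift of BJ296643 against ABA is not independent evidence. A further lipid transfer protein (X05168) was dim in embryo, under 20 on each array against 157, 361 and 234 in endosperm (log2 -4.48 with the floor, or -4.56 without replicate 1).

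Defence proteins were mostly endosperm-high. Of 16 probe sets, 12 were higher in endosperm and 1, wheat germ agglutinin, in embryo, with a median of -1.99 (12 and 1, and -2.10, without replicate 1), against 10 and 1 in water and 12 and 1 under ABA. With arrays scaled to the hybridization controls 6 were higher in endosperm and 3 in embryo, and the median stayed negative at -0.55. Names for 12 of the 16 came only from the study's table chosen on these samples, so their direction is not independent evidence. Pathogenesis-related protein 1 (BM136002), a small secreted protein of plant defence, read 78, 62.2 and 88.5 in embryo and 20861, 20915 and 21097 in endosperm, a 278-fold difference (log2 -8.12, SE 0.14, adjusted p = 4.8e-19, or -8.14 without replicate 1). PR4 (CD915938), which is related to the barley chitin-binding protein barwin, read 504, 583 and 469 against 11209.7, 11009 and 11251 (log2 -4.43, or -4.42 without replicate 1). Both replicate sets were tight, and the outlying array did not stand out for either gene.

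Enzymes that cleave beta-glucans, which protect against fungi and also open endosperm walls, lay on the same side. A beta-glucanase (Z22873) read 398, 461 and 415 in embryo and 8265, 8208 and 8182 in endosperm (log2 -4.28, SE 0.11, adjusted p = 1.6e-16, or -4.23 without replicate 1). A glucan endo-1,3-beta-D-glucosidase (Y18212) read 95.6, 95.6 and 94.4 against 3455, 3052 and 2846 (log2 -5.03, with and without replicate 1). The tissue difference of the former was larger than in water by -1.56 (adjusted p = 7.4e-06, or -1.52 without replicate 1) and than under ABA by -1.48 (adjusted p = 3.3e-06, or -1.43 without replicate 1, but turned to 0.07, adjusted p = 0.898, with arrays scaled to the hybridization controls), while that of the latter passed neither test (0.14 and -0.31). Among wall-degrading enzymes, BJ274015 and CD928919, both matched to glycosyl hydrolases of family 3, differed by -4.51 and -4.71 (-4.22 and -5.02 without replicate 1). A xyloglucan endotransglycosylase match (CK163798), classed with other wall modification, differed by -4.88 (-4.77). In that list 17 of 69 were higher in embryo and 9 in endosperm (18 and 10), against 13.1% and 9.62% over all probe sets.

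Among the 15 named transcripts with the largest endosperm excess, 4 were classed as starch cleavage, which frees sugars for the seedling. All 4 were named only by the study's table of transcripts changed by treatment in the embryo, so neither their direction nor their shift against water is independent evidence. AL820663 read 903, 527 and 484 in embryo and 18632, 19987 and 18803 in endosperm (log2 -4.96, SE 0.17, adjusted p = 9.3e-15, or -5.24 without replicate 1). BF293263 read 197, 204 and 119 against 7632, 7990.4 and 7803 (log2 -5.53, SE 0.24, adjusted p = 5.2e-13, or -5.64 without replicate 1). CA720455 and CA644563 differed by -4.86 and -4.79 (-5.03 and -5.15 without replicate 1). In all of them every endosperm signal exceeded every embryo signal by more than 10-fold. The difference was larger under H2O2 than in water in each, by -2.05 for AL820663, -2.95 for BF293263, -2.56 for CA720455 and -1.72 for CA644563 (adjusted p from 1.8e-06 to 0.00356), and by -2.33, -3.06, -2.73 and -2.08 without replicate 1. The signal of BF293263 was 589.6 to 595 in CK_embryo and 3475 to 3614 in CK_endosperm, so it was lower in embryo and higher in endosperm under H2O2 than in water.

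Over the list of starch, sucrose and fructan enzymes, 8 of 21 were higher in endosperm and 2 in embryo (8 and 4 without replicate 1). Among all probe sets 9.62% were higher in endosperm and 13.1% in embryo (11% and 14.2% without replicate 1). The list median was -0.10, and it turned to 1.17 with arrays scaled to the hybridization controls. The tissue difference was shifted towards endosperm relative to water in 6 members and towards embryo in 1 (8 and 3 without replicate 1, and 5 and 0 with arrays scaled to the hybridization controls). The background for these shifts was 2.12% and 1.51%, or 4.57% and 3.97% without replicate 1. Names for 14 of the 21 came only from the study's table, so the counts and shifts of the list are not independent evidence.

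Proteases showed both directions, with the larger differences in endosperm. Of 9 tested, 5 were higher in endosperm and 2 in embryo, with and without replicate 1. The median was -0.74 and turned to 0.70 with arrays scaled to the hybridization controls. The background of calls was 9.62% in endosperm and 13.1% in embryo, or 11% and 14.2% without replicate 1. Names for 7 of the 9 came only from the study's table, so their direction is not independent evidence. A cysteine protease probe set (BQ169109) read 345, 705 and 769 in embryo and 36999.6, 35396 and 35368 in endosperm (log2 -5.97, SE 0.20, adjusted p = 8.7e-15, or -5.61 without replicate 1). Another (AJ612538) read 748, 472 and 551 against 16524, 17297 and 16556 (log2 -4.86, or -5.04 without replicate 1), and a serine protease (CK208190) 2379.9, 4379 and 4462 against 36496, 40296 and 37715 (log2 -3.41, or -3.11). A different cysteine protease (AB109216) was embryo-high at 1283, 2789.9 and 2695 against 128, 109.6 and 195 (log2 3.93, SE 0.26, adjusted p = 4.4e-10, or 4.29 without replicate 1). Proteases of the same catalytic class were thus split between the tissues, with no overlap in either direction.

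Other abundant endosperm transcripts bind metals, release phosphate or regulate transcription. The Ec protein (CD906435), a zinc-binding metallothionein of cereal grains, read 757, 1853 and 1735 in embryo and 49725, 52277 and 52741 in endosperm (log2 -5.26, SE 0.22, adjusted p = 2.3e-13, or -4.85 without replicate 1). A probe set classed with the acid phosphatases (CD453971) read 36.8, 26.9 and 96.4 against 3193, 3410.1 and 3183 (log2 -6.16, or -6.0 without replicate 1), with 165 to 267 in CK_embryo and 1597 to 1759 in CK_endosperm. Its tissue difference was larger under H2O2 than in water by -3.22 (adjusted p = 0.000208, or -3.07 without replicate 1). Its class came from the study's table of transcripts changed by treatment, so this shift is not independent evidence. The transcription factor Myb3 (AJ615787) read 377, 300.2 and 286 against 11643, 12502 and 11693 (log2 -5.23, SE 0.13, adjusted p = 5.5e-17, or -5.35 without replicate 1). Of 23 transcription factor probe sets, 10 were higher in endosperm and 5 in embryo (10 and 4 without replicate 1), with a median of -0.32 that turned to 0.88 with arrays scaled to the hybridization controls. The background of calls was 9.62% in endosperm and 13.1% in embryo (11% and 14.2% without replicate 1). Names for 22 of the 23 came only from the study's table, so their direction is not independent evidence. The MADS-box factor TaAGL13 (BJ228622) was on the embryo side, at 301, 307 and 264 against 18.6, 12 and 10.9, where all endosperm signals lay near the floor.

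**Figure D4:**
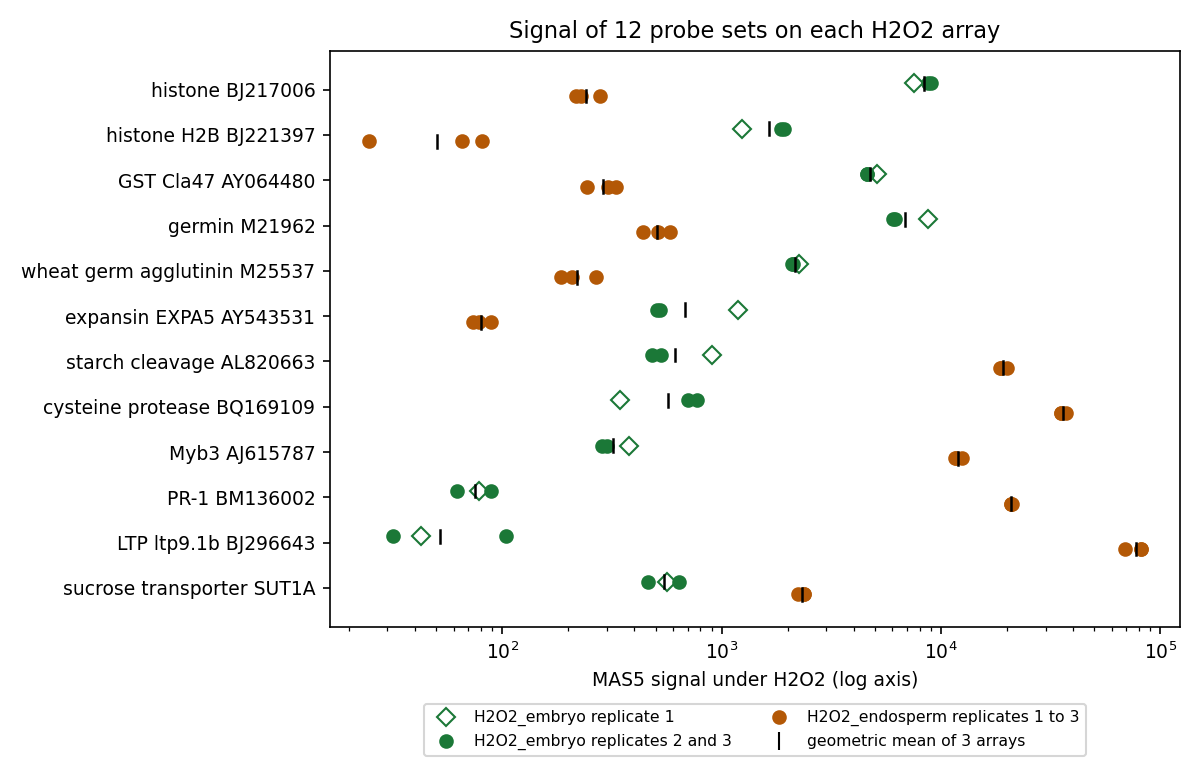
MAS5 signal (log x axis) of 12 probe sets on each H2O2 array, with H2O2_embryo in green (open diamond for replicate 1), H2O2_endosperm in brown and a black bar for the geometric mean of 3 arrays. The groups do not overlap in any of the 12, and the gap is widest for ltp9.1b, at 31.7 to 104 against 69091 to 81807.

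Transporters were higher in endosperm more often than in embryo. Of 31 tested, 12 were higher in endosperm and 6 in embryo (16 and 7 without replicate 1), with a median of -0.55 that turned to 0.89 with arrays scaled to the hybridization controls. Over all probe sets 9.62% were higher in endosperm and 13.1% in embryo (11% and 14.2% without replicate 1). Names for 26 of the 31 came only from the study's table of transcripts changed by treatment, so neither their direction nor their shift against water is independent evidence. The sucrose transporter SUT1A (AF408844) read 563, 461 and 637 in embryo and 2241, 2387 and 2380.2 in endosperm (log2 -2.09, SE 0.19, adjusted p = 4.3e-08, or -2.11 without replicate 1). The plasma membrane proton pump ha1 (AY543630) read 7246, 7625 and 6130.4 against 28234, 33019 and 29713 (log2 -2.12, or -2.15 without replicate 1), and an AKT1-like potassium channel (AF207745) 118, 83.1 and 80.8 against 715, 585 and 456 (log2 -2.64, or -2.81). In each of the 3, all endosperm signals lay above all embryo signals. The list was shifted towards endosperm relative to water in 11 members and towards embryo in 1 (15 and 4 without replicate 1, and 1 and 0 with arrays scaled to the hybridization controls). The background for these shifts was 2.12% and 1.51%, or 4.57% and 3.97% without replicate 1.

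A subunit of the vacuolar proton pump, which acidifies the vacuole, was called different between the tissues in water and not called under H2O2. Subunit A (CA680179) read 431, 201 and 137 in H2O2_embryo and 234, 158 and 261 in H2O2_endosperm, with overlap and no call (log2 0.10, adjusted p = 0.898, or -0.36, adjusted p = 0.577, without replicate 1). In water it read 220.0, 233 and 295 in embryo and lay under 20 on each endosperm array. The tissue difference under H2O2 was thus shifted towards endosperm relative to water by -4.05 (adjusted p = 0.000172, or -4.51 without replicate 1), and it did not pass the test against that under ABA (0.05, adjusted p = 0.982).

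With the deposited scaling, storage protein transcripts that passed the test were all endosperm-high. They are the starchy endosperm markers given above without waxy starch synthase, so these are the same calls. Of 18 tested, 5 were higher in endosperm and none in embryo (6 and 0 without replicate 1), with a median of -0.97. With arrays scaled to the hybridization controls 4 were higher in endosperm and 5 in embryo, and the median turned to 0.16. With the deposited scaling the background of calls was 9.62% in endosperm and 13.1% in embryo. A low-molecular-weight glutenin (BJ296454) read 399, 284 and 361 in endosperm and lay under 10 on every embryo array (9.08, 5.09 and 3.91). A gamma-gliadin (BJ240325) read 172, 134 and 151 in endosperm and 4.55, 2.3 and 18.3 in embryo. The embryo levels here were at or near the floor, so the fitted differences of -5.11 and -3.63 (-5.11 and -3.49 without replicate 1) are understated.

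LEA proteins and dehydrins, which protect cells during drying, were divided. Of 46 probe sets, 16 were higher in endosperm and 13 in embryo (16 and 15 without replicate 1), with a median of -0.13 that turned to 1.27 with arrays scaled to the hybridization controls and to 0.03 without replicate 1, and 32 of the 46 were named only by the study's table, so their direction and shifts are not independent evidence. The background of calls was 9.62% and 13.1% (11% and 14.2% without replicate 1). A Rab protein (X62476), a dehydrin that responds to ABA, read 633, 1233 and 1185 in embryo and 23329, 26109 and 23584 in endosperm (log2 -4.64, SE 0.18, adjusted p = 8.4e-14, or -4.33 without replicate 1). The ABA-induced plasma membrane protein PM 19 (U80037) read 266, 286 and 293 against 4763, 4692 and 4419 (log2 -4.04, SE 0.10, adjusted p = 1e-16, or -4.00 without replicate 1). A LEA probe set (CK199583) was embryo-high at 2945, 3354 and 3802 against 279.7, 265 and 258 (log2 3.65, SE 0.14, or 3.74 without replicate 1). Members of 1 list thus lay far apart in opposite directions.

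The direction of the LEA list relative to ABA depended on the scaling. The tissue difference was shifted towards endosperm in 15 members and towards embryo in 1 (21 and 3 without replicate 1, on a background of 2.28% and 2.02%), with a median of -0.51. With arrays scaled to the hybridization controls the counts were 5 and 19 and the median turned to 1.03, where the median of all probe sets was 1.43. PM 19 read 11715, 11966 and 11593 in ABA_embryo and 11149, 11039.7 and 11171 in ABA_endosperm, with a log2 difference of 0.08, so its tissue difference under H2O2 exceeded that under ABA by -4.12 (adjusted p = 3.5e-13, or -4.08 without replicate 1). For the Rab protein this value was -3.94 (adjusted p = 2.8e-09, or -3.62) and for the Ec protein, which read 22464, 23435 and 23485 in ABA_embryo, -3.89 (adjusted p = 4.6e-08, or -3.47). An acidic ribosomal protein probe set (BQ579004) shifted by -2.83 (adjusted p = 1.6e-09, or -2.98), from 10737, 9784 and 11467 in ABA_embryo to 1132, 865 and 769 in H2O2_embryo. In all 4 the endosperm signals lay well above the embryo signals under H2O2.

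Photosynthesis transcripts were called at shares near or below the background. Of 213 light-reaction probe sets, 20 were higher in embryo and 19 in endosperm (14 and 14 without replicate 1), and of 86 for photorespiration and the Calvin cycle 9 and 6 (11 and 11). The medians were 0.22 and 0.18, and -0.06 and 0.03 without replicate 1. Of 51 for the rubisco large subunit 1 (CA645616) was called. A rubisco small subunit (CK212552) read 62869, 17161 and 22616 in embryo and 6490.4, 6671 and 12266 in endosperm (log2 1.84, SE 0.37, adjusted p = 0.000884, or 1.28 without replicate 1). Several photosystem calls rested on the outlying array: the subunit PsbP (BM136337) read 327, 113 and 88.6 against 50.1, 11 and 57.2 and lost its call without it (adjusted p = 0.0704), as did photosystem I matches BE217056 (adjusted p = 0.256) and CK212788 (adjusted p = 0.0901).

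**Figure D5:**
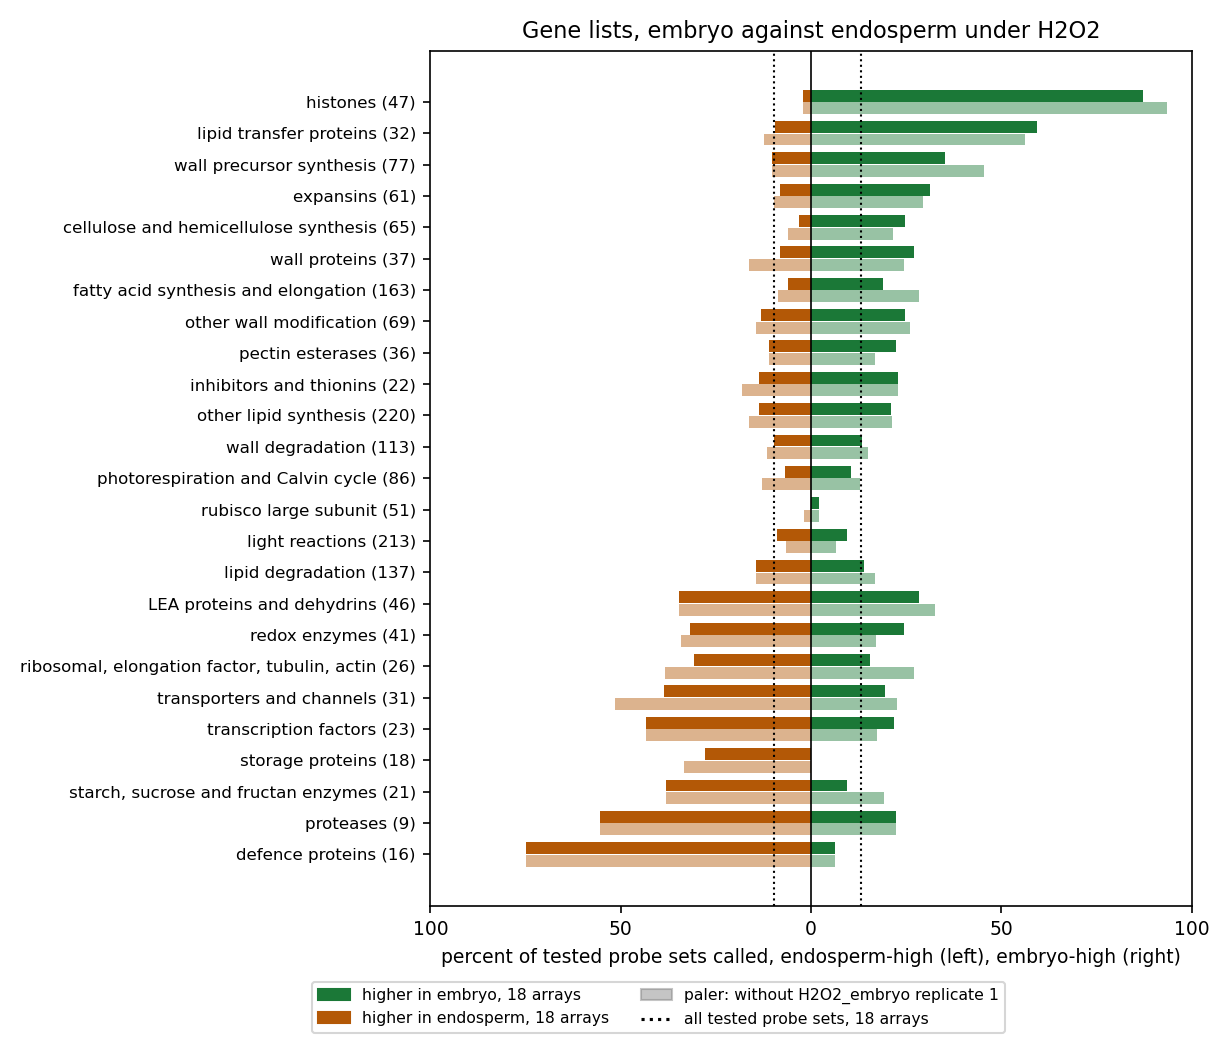
Percent of the tested probe sets of each gene list (number in brackets) called higher in embryo (green, right) or higher in endosperm (brown, left) under H2O2, for 18 arrays and, paler, without H2O2_embryo replicate 1, where dotted lines give the shares over all tested probe sets, 13.1% and 9.62%. Histones reach furthest on the embryo side, with 41 of 47, and defence proteins on the endosperm side, with 12 of 16. With arrays scaled to the hybridization controls the median of every list but defence proteins is positive.

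The tissue differences under H2O2 were set against those in water and under ABA by testing the difference of differences. Relative to water, 874 probe sets (1.51%) were shifted towards embryo and 1230 (2.12%) towards endosperm, and relative to ABA 1169 (2.02%) and 1320 (2.28%). Without replicate 1 these counts rose to 2300 (3.97%) and 2653 (4.57%), and to 2672 (4.61%) and 2686 (4.63%), in all 8.54% against water and 9.24% against ABA, up from 3.63% and 4.29%, so the number of calls rested heavily on that array. Under scaling to the hybridization controls the counts were 52 and 330 against water and 20074 and 141 against ABA, where the median difference of all probe sets moved from 0.06 to 1.43. Without CK_embryo replicate 3 the total against water fell from 2104 to 1322, and without CK_embryo replicate 1 to 1344. Of the 7590 embryo-high probe sets under H2O2, 2696 were also called embryo-high in water and under ABA and 2892 in neither. For the 5579 endosperm-high ones these counts were 2025 and 2106. Without replicate 1 the counts called in neither fell to 1828 of 8231 and 1675 of 6406.

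A small set turned over between water and H2O2. The direction was opposite and called in both conditions for 143 of the 57992 probe sets tested, 32 of them embryo-high under H2O2 and 111 endosperm-high. In each of the 143 the difference between the conditions was called. Opposite calls in both conditions make that call nearly certain, so it adds no separate evidence. Without replicate 1 these counts were 144 and 218. Against ABA 136 and 72 probe sets had opposite calls (307 and 203 without replicate 1). These reversals depended on the scaling: after scaling to the hybridization controls 18 of the 143 still had opposite signs and 2 were called in both conditions. Names exist for 18 of the 143, and of these 1 (CA645616) then had opposite signs and none was called in both. A heat shock protein 70 (CA699307), a chaperone, ran from 85.8 to 285 in H2O2_embryo and from 391 to 458 in H2O2_endosperm, and from 253 to 299 against 114 to 157 in water (log2 -1.34 against 1.04, difference -2.39, adjusted p = 0.00396). Its value under H2O2 was -1.72 without replicate 1 and turned to 0.10 with arrays scaled to the hybridization controls. An indole-3-glycerol phosphate synthase match (BJ266589), an enzyme of tryptophan synthesis, ran from 548 to 913 against 1432 to 1644 under H2O2 and from 1313 to 1656 against 723 to 816 in water (log2 -1.04 against 0.89). Its value under H2O2 was -0.81 without replicate 1 and turned to 0.41 with arrays scaled to the hybridization controls. In neither gene did the tissues overlap in either condition. A calcium-dependent protein kinase (BJ268280) had -0.67 under H2O2 and 1.66 in water, but its call under H2O2 was lost without replicate 1 (-0.31, adjusted p = 0.104), and its value turned to 0.77 with arrays scaled to the hybridization controls. BJ266589 and BJ268280 stand in the study's tables of transcripts changed by treatment, so their shifts against water are not independent evidence.

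Some transcripts with large tissue differences carry no name in the sources used here. The probe set for CA631890 read 14190, 12359 and 11347 in embryo and 241, 214 and 442 in endosperm (log2 5.47, SE 0.20, adjusted p = 2.6e-14, or 5.38 without replicate 1). On the other side, a probe set for BJ290133 read 156, 73 and 50.8 against 56628, 64399 and 60284 (log2 -9.50, SE 0.24, adjusted p = 1.1e-16, or -9.95 without replicate 1). Both separated the tissues on every array by more than 20-fold.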

How the data were processed

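RNA of embryo and endosperm was measured on 18 arrays, 3 per group, grouped by their labels. The deposited intensity values are linear signals that the authors made with MAS5 (per the labels), which summarises the probes of each probe set and scales each array to a common trimmed mean; the study's methods name a target signal, in a passage that also names another array type, so whether the deposited signals match that target was not settled. The table holds no detection calls. Of 61290 rows, 111 control probe sets were left out. Signals below 10 were raised to 10 before log2, and 57992 probe sets with a signal of at least 20 on at least 3 arrays were tested (3187 were filtered out).

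All arrays were fitted with limma 3.58.1 in R 4.3.3 (lmFit on 6 group means, eBayes with a trend, 12 residual degrees of freedom), with Benjamini-Hochberg adjustment and a threshold of 0.05. The study's test, significance analysis of microarrays, was not run, since 3 against 3 arrays allow few permutations. On simulated data of 57992 probe sets for the contrast under H2O2, 43 of 100 changed by a log2 of 1 and 67 of 100 changed by 2 were recovered, none with the wrong sign, and 12 unchanged ones were called. All other simulated probe sets had equal means in every group, and the outlying array was not modelled. These shares therefore do not give the recovery in the real contrast, where far more probe sets differ. The number of arrays limits the precision, and depth in counts does not apply. The labels call the replicates independent experiments; p-values measure the spread between them.

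Names came from the platform annotation (1273 probe sets with 1 symbol, 1272 of them in the RefSeq gene table, 59906 with none) and from the study's supplementary tables, held in part (1415 and 202 probe sets, 81 more through a shared gene ID), 1945 in all. Lists follow MapMan functional bins or words in the names. Members and lists were chosen with earlier results of these data known. Named probe sets are the 15 largest differences each way among named, called, non-overlapping probe sets with a geometric mean of at least 20 in both tissues, 1 per accession; 5 each way that lay under 20 on all arrays of the other tissue; up to 4 per list; 5 each way per difference between conditions; and 2 unnamed ones each way. The transcripts with opposite directions were chosen after their values were seen. Alternatives were other floors, filters, scalings and fits, array weights, stricter thresholds, a blocking term for the replicate number, and leaving out 1 array at a time; scaling to the hybridization controls, and quantile normalization without H2O2_embryo replicate 1, were added after seeing the data. Summaries used Python 3.11.15 with numpy 2.4.6 and pandas 2.3.3, and figures matplotlib 3.10.9.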

Additional observations from a re-analysis of the deposited data

Results flagged for a closer look

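The tissue difference under H2O2 differed from that in water for 2104 probe sets and from that under ABA for 2489, by tests of the difference of differences. Among named transcripts whose difference was shifted towards embryo relative to water were the histone BJ209178 (3.89), the acyl-CoA reductase match BJ242205 (4.13), a cyclopropane-fatty-acyl-phospholipid synthase match (CA729605, 4.33), a rubisco large subunit probe set (CA645616, 5.11) and a photosystem II polypeptide (CA656907, 4.51). The last 2 are dim, at 41.6 to 116 and 70.9 to 125 in H2O2_embryo and at 1.9 to 7.3 and 2.99 to 55.1 in H2O2_endosperm. CA729605 read 1015 on the outlying array and 218 and 204 on the other H2O2_embryo arrays. BJ209178 stands in the study's table of transcripts changed by treatment, so its shift is not independent evidence.

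Towards endosperm relative to water lay the acid phosphatase CD453971 (-3.22), a rhamnose synthase match of wall precursor synthesis (BJ314801, -4.70), vacuolar proton-ATPase subunit A (CA680179, -4.05), a sterol acyltransferase match (CA657948, -3.09) and a phosphotransfer enzyme (BJ244873, -3.0). CA657948 and BJ244873 read 6.62 and 30.1 on H2O2_embryo replicate 1, against 92.2 and 85.2, and 288 and 312, on replicates 2 and 3. CD453971 and BJ244873 stand in the study's table of transcripts changed by treatment, so their shifts are not independent evidence.

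Relative to ABA, histone probe sets were shifted towards embryo by 6.80 (BJ217006), 6.38 (BJ308450), 6.57 (BJ214272), 8.16 (BJ209178) and 7.18 (BJ308545). All of these histones stand in the study's table of transcripts changed by treatment, so their shifts are not independent evidence. Towards endosperm lay the Ec protein (CD906435, -3.89), the Rab protein (X62476, -3.94), PM 19 (U80037, -4.12), ltp9.1b (BJ296643, -4.02 on its lower embryo probe set) and a pectate lyase or polygalacturonase match (BQ166429, -3.70), whose call between the tissues under H2O2 was lost without replicate 1 (adjusted p = 0.0735). BJ296643 also stands in the study's table of transcripts changed by treatment, under another class, so its shift is not independent evidence.

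In data outside the comparisons, the poly-A controls had a geometric mean of 3826 in H2O2_endosperm, above 3663 in CK_endosperm. With arrays scaled to the hybridization controls, the differences against water of BJ314801, CA645616 and CA656907 (-4.22, 3.95 and 3.99) and that against ABA of BQ166429 (-2.44) were no longer called. Groups of 3 arrays were not tested for outliers.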

How the results depend on the processing

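The counts of calls depended on the arrays that estimate the spread. The 13169 tissue differences under H2O2 became 6145 with only the 6 arrays compared, 8471 with at least 2-fold, 30822 with arrays scaled to the hybridization controls, and 11092 to 14637 with 1 array left out. The 2104 differences against water became 1051 without the trend, 1077 with only the arrays compared, 4610 with array weights, 4745 without H2O2_embryo replicate 1 after quantile normalization, 382 with arrays scaled to the hybridization controls, 911 at an adjusted p of 0.01, and 1322 to 4953 with 1 array left out. The 2489 against ABA became 1410, 1465, 5531, 5498, 20215 and 1301 under the same settings, and 1786 to 5358. The 563 calls over the gene lists (340 embryo-high, 223 endosperm-high) became 324 with only the arrays compared, 978 with arrays scaled to the hybridization controls and 496 to 619 with 1 array left out. The cause was not tested, beyond the smaller number of arrays.

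Of 132 named probe sets, 125 kept direction and call without H2O2_embryo replicate 1 and 7 lost the call; with only the arrays compared 19 lost it. With arrays scaled to the hybridization controls 14 lost it, and a pectin methylesterase match (CA646875, 0.19) and an actin (BQ246681, 0.05) turned direction, neither being called there; the cause was not tested. With the replicate number as a block the counts were 13013, 1910, 2331 and 559. Same-numbered arrays deviated together by r of -0.035 to 0.019, which does not settle whether they came from the same seeds.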
